A study of Homo sapiens with 12 samples.

Results

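The 5 C/EBP genes CEBPA, CEBPB, CEBPD, CEBPE and CEBPG and the Tribbles genes TRIB1 and TRIB2 are described here in U937, a human myeloid leukemia cell line with monocytic features. They were picked by symbol, 7 of the 44786 gene symbols in the count table, and every transcript listed under those symbols was taken. TRIB1 drew attention through its own values, because its response to both agents together departed strongly from the sum of the responses to each agent, so its levels and the interaction values of all 7 genes are given as a description without a test. The 7 genes had 14 transcripts in the table, of which 12 had reads and 2, both of TRIB2, had none in any library. Transcripts had to reach 10 normalized reads in 3 or more libraries to be tested, and 9 of the 12 did so, among 9016 protein-coding transcripts in all.

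C/EBP proteins are leucine zipper transcription factors that bind DNA as homodimers or heterodimers. C/EBPα is required for the commitment of progenitors to granulocytes and monocytes, C/EBPε for the late granulocytic stages, and C/EBPβ and C/EBPδ are induced by cytokines and inflammatory signals, while C/EBPγ lacks a strong activation domain and acts mainly through its partners. TRIB1 and TRIB2 are pseudokinases that bring the ubiquitin ligase COP1 to C/EBPα and thereby promote its degradation, and forced expression of either causes acute myeloid leukemia in mice.

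The 4 conditions had 3 RNA-seq libraries each, all from the same line. The labels give a medium with 20% fetal calf serum and 5 ng/ml GM-CSF, whereas the study's methods describe a lower share of serum for its cell lines and name no GM-CSF. The cells were left untreated, or received 200 nM decitabine (DAC, a nucleoside analog that depletes DNA methyltransferase), 1 µM all-trans retinoic acid (ATRA, the ligand of the retinoic acid receptors), or both agents (DAC + ATRA), over a schedule of 3 days. The sample descriptions give 72 h for the treated cells and 96 h for the untreated cells, whereas the series' design text gives 72 h for the harvest of all cells. If the descriptions hold, treatment and time cannot be told apart. The labels' treatment protocol reads as ATRA given alongside DAC over the whole schedule, but the study's methods place ATRA on the final day only. The study's methods mention vehicle-treated controls for the drug treatments, whereas the labels of these libraries say untreated. The series' design text calls the triplicates technical, so p-values measure the spread between such libraries of a single cell line. Libraries are named by condition and by the running number of their column, 1 to 12.

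The libraries held 8042435 to 10683593 counted reads, and values are normalized read counts, that is, reads divided by a size factor per library. ATRA library 9 stood apart: its median tested transcript lay 0.18 below that of the other ATRA libraries on the log2 scale, whereas that of ATRA library 7 lay 0.13 above the others. Of the 9 myeloid identity markers 5 had a mean of at least 10, with a summed level of 52940 to 59464 in untreated and 19973 to 21266 in DAC + ATRA libraries, most of it from MPO. Taken singly, 1 of these 5 was higher with DAC + ATRA at an adjusted p below 0.01 (limma), 1 was lower and 3 were neither. MPO went from a mean of 52120 to 14973, while LYZ went from 164 to 1097. Another of the 9, PTPRC, which white blood cells in general express, was listed at 0 in every library, so a 0 in this table does not show that a gene was silent. The 3 erythroid markers were listed at 0 throughout, the 3 T cell markers together reached at most 14.8 and the 4 epithelial markers at most 22.4. Of the B cell markers, CD79A averaged 131 in untreated, 513 in DAC, 314 in ATRA and 1336 in DAC + ATRA libraries. Mitochondrial transcripts held 40.6% to 42.5% of the reads in untreated, 37.0% to 40.4% in DAC, 38.9% to 41.1% in ATRA and 36.3% to 38.3% in DAC + ATRA libraries, and neither group with DAC overlapped the untreated one. The part of these changes in markers and mitochondrial reads in the results on the 7 genes was not tested. The deposited scaling put the median tested transcript 0.22 (DAC) and 0.20 (DAC + ATRA) above untreated on the log2 scale, against 0.02 and 0.06 with edgeR's TMM scaling, and differences below should be read against that shift.

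Since DAC acts on cytosine methylation, the 250 bases before the start of the main transcript, the one with the highest mean, are shown for CEBPE and for a trio of members that changed with both agents, with every CpG dinucleotide in capitals. Of the 7 genes 5 were searched, and CEBPD and TRIB1 were left out of all sequence searches in this paragraph. Nothing is therefore said of the sequence around their starts. The sequences are from RefSeq (GRCh38.p14), written 5′ to 3′ on the strand of the gene, and cover chr14:23119256-23119505 (minus strand) for CEBPE, chr19:33302535-33302784 (minus strand) for CEBPA, chr20:50190580-50190829 (plus strand) for CEBPB and chr2:12716686-12716935 (plus strand) for TRIB2.
CEBPE: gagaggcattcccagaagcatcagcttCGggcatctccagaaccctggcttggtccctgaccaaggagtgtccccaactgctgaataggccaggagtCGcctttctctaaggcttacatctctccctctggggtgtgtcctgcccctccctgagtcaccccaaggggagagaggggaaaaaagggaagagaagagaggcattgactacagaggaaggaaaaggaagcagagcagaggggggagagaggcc
CEBPA: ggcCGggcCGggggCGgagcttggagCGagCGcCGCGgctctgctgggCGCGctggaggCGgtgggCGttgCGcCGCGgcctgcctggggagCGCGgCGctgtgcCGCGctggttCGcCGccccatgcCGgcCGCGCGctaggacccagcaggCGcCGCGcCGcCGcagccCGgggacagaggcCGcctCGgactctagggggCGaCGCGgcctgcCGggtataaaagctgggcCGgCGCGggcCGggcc
CEBPB: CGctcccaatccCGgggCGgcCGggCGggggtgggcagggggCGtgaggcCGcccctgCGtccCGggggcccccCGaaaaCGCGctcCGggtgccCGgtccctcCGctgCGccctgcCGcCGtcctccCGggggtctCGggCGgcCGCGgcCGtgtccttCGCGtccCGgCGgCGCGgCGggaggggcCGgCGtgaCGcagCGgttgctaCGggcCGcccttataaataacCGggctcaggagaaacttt
TRIB2: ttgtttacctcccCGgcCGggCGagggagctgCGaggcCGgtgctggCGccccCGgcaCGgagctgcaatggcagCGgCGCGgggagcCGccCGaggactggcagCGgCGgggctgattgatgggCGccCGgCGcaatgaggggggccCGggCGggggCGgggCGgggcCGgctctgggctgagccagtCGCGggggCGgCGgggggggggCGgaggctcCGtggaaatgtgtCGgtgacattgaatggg
The CEBPE stretch held 2 CpG, and 14.7% of the 35116 promoters in the table held fewer. By contrast, CEBPA held 41, CEBPB 38, TRIB2 30 and CEBPG, matched but not printed, 32, against a median of 11 over all promoters. None of these 5 stretches contained TTGCNNAA, the letters searched on both strands for a C/EBP motif, which 9.05% of all promoters contained. Retinoic acid receptors bind direct repeats of AGGTCA-like hexamers, of which the forms named DR1, DR2 and DR5 were searched on both strands. Within 2000 bases on either side of the start, a DR2 was found for CEBPA, 1871 bases downstream of the start and inside its single exon, and none for CEBPB, CEBPE, CEBPG or TRIB2. Over 20046 protein-coding gene starts, 23.7% had a DR1, DR2 or DR5 in such a window. These matches describe letters only, and neither methylation nor binding was measured in these libraries.

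CEBPE, the C/EBP factor of late granulocytic differentiation, was about 5 to 7 times higher with each treatment than in untreated cells. Its transcript ENST00000206513.5 (hg38, chr14:23117306-23119255, minus strand, 2 exons) had 276, 266 and 227 normalized reads in the untreated libraries, 1513, 1297 and 1682 with DAC, 1329, 1333 and 951 with ATRA, and 1606, 1856 and 1618 with DAC + ATRA. All 9 treated libraries lay above the 3 untreated ones, and the DAC + ATRA libraries lay above the ATRA libraries but overlapped the DAC libraries. Against untreated, on the log2 scale, CEBPE rose by 2.54 ± 0.13 under DAC, 2.22 ± 0.13 under ATRA and 2.72 ± 0.13 under the combination (± SE; limma, Benjamini-Hochberg adjusted p = 1.79e-12, 7.85e-11 and 4.55e-13). Log2 differences were taken after adding 1 to each normalized read count, and a change was called at an adjusted p below 0.01. DAC + ATRA exceeded ATRA by 0.50 ± 0.13 (limma, adjusted p = 0.0038), a call that was lost without ATRA library 9 (0.34, adjusted p = 0.0199) and without DAC+ATRA library 11 (0.44, adjusted p = 0.027). The difference from DAC was 0.18 ± 0.13 (limma, adjusted p = 0.406).

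CEBPA, which drives commitment to the myeloid lineages, had the highest level of the 7 genes per kb in every condition and changed by less than 2-fold. Its single-exon transcript ENST00000498907.2 (chr19:33299934-33302534, minus strand) had 8764, 7716 and 6892 normalized reads in untreated libraries, 16126, 12328 and 16399 with DAC, 14125, 14734 and 8930.5 with ATRA, and 12642, 13714 and 12435 with DAC + ATRA. Every treated library lay above every untreated one, though ATRA library 9 did so only narrowly, and the treated groups overlapped each other. CEBPA rose 1.92-fold with DAC (log2 0.94 ± 0.16, limma adjusted p = 0.000109), 1.62-fold with ATRA (0.67 ± 0.16, adjusted p = 0.00822) and 1.66-fold with DAC + ATRA (0.74 ± 0.16, adjusted p = 0.00082). The DAC + ATRA call was lost with no filter on low values (limma, adjusted p = 0.0259). The ATRA call was the least stable: it was lost without untreated library 2 or 3, DAC library 4, or ATRA library 7 or 8 (adjusted p from 0.0105 to 0.0523), whereas without ATRA library 9 the difference was 0.90 (adjusted p = 2.79e-05). Of its 2601 bases, 1141 lie under exons on the opposite strand, 482 of them under CTD-2540B15.7, which averaged 39.5 normalized reads. The libraries were strand-specific, but the strand setting used in counting is not given in the sources used here.

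CEBPB, a cytokine-inducible activator, had its highest levels in the groups that received ATRA. The single-exon transcript ENST00000303004.4 (chr20:50190830-50192668, plus strand) had 701, 721 and 655 normalized reads in untreated libraries, 1298, 992 and 1469 with DAC, 2790, 3438 and 1720.35 with ATRA, and 2448, 2645 and 2558 with DAC + ATRA. The order was untreated, then DAC, then both ATRA-containing groups, which overlapped each other. ATRA raised CEBPB 3.83-fold (log2 1.88 ± 0.19, limma adjusted p = 2.23e-06) and DAC + ATRA 3.68-fold (1.88 ± 0.19, adjusted p = 3.38e-07), and DAC + ATRA was 2.04-fold above DAC (1.04 ± 0.19, adjusted p = 0.000889), a call that was lost with no filter on low values (adjusted p = 0.0241). The 1.81-fold rise with DAC (0.84 ± 0.19, limma adjusted p = 0.00163) did not pass with edgeR and TMM scaling (0.65, adjusted p = 0.0128). Against ATRA alone, DAC + ATRA differed by 0.00 ± 0.19 (limma, adjusted p = 0.995). An antisense transcript, CEBPB-AS1, shares 231 exonic bases with CEBPB on the opposite strand and had 74.3 ± 2.96 normalized reads in untreated, 133 ± 19.5 in DAC, 85.4 ± 5.61 in ATRA and 127 ± 10.2 in DAC + ATRA libraries (SD, n = 3).

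CEBPD, an acute-phase and inflammatory C/EBP factor, was read almost only in cells that had received DAC. Its single-exon transcript ENST00000408965.3 (chr8:47736913-47738164, minus strand) had no read in any untreated library, 464, 411 and 648 normalized reads with DAC, 429, 474 and 416 with DAC + ATRA, and 1 read over the 3 ATRA libraries, in ATRA library 9. It passed the filter through the DAC-treated libraries alone, so its differences from the groups without DAC are given as a description. Set against a floor of 3 reads per untreated library, CEBPD was at least 184-fold higher with DAC and at least 160-fold higher with DAC + ATRA, and neither group overlapped the untreated or the ATRA libraries. Relative to ATRA, the ratio of the group means of DAC + ATRA was 1584. With the single ATRA read pooled over its 3 libraries (0.308 normalized reads) the ratio was 1427, with a 95% counting interval from 256 to 56375 that covers counting error only. DAC + ATRA and DAC overlapped and differed by -0.18 ± 0.27 on the log2 scale (limma, adjusted p = 0.727). Fewer cells of a type and less RNA per cell cannot be told apart in bulk libraries such as these.

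CEBPG was the member with no called change. Its main transcript ENST00000284000.8 (chr19:33373709-33382686, plus strand, 2 exons) had 48.7, 40.1 and 35.1 normalized reads in untreated libraries, 48.6, 36.0 and 94.6 with DAC, 52.8, 54.6 and 28.3 with ATRA, and 47.9, 61.1 and 43.3 with DAC + ATRA. All 4 groups overlapped, and DAC library 6 alone stood above the rest. The log2 differences from untreated were 0.42 ± 0.30 for DAC, 0.08 ± 0.30 for ATRA and 0.29 ± 0.30 for DAC + ATRA (limma, adjusted p = 0.26, 0.913 and 0.433), and without DAC library 6 the first was 0.03 (adjusted p = 0.936). Only 187 of its 3730 bases lie outside other transcripts on the same strand, and how reads that fit several transcripts were counted is not given in the sources used here. The second CEBPG transcript, ENST00000585933.2, had 10.8 to 19.3 normalized reads per library and also showed no called change.

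TRIB2, one of the COP1 adaptors that target C/EBPα, had mean levels in the ascending order untreated, DAC, ATRA and DAC + ATRA. Transcript ENST00000155926.8 (chr2:12716936-12742734, plus strand, 3 exons) had 104, 91.0 and 77.6 normalized reads in untreated libraries, 341, 428 and 452 with DAC, 774, 872 and 515 with ATRA, and 932, 1083 and 1062 with DAC + ATRA. No group overlapped another. TRIB2 rose 4.48-fold with DAC (log2 2.15 ± 0.17, limma adjusted p = 1.54e-09), 7.93-fold with ATRA (2.95 ± 0.17, adjusted p = 6.5e-11) and 11.3-fold with DAC + ATRA (3.49 ± 0.17, adjusted p = 7.27e-13). The combination was 2.52-fold above DAC (1.34 ± 0.17, limma adjusted p = 6.36e-06), whereas 1.42-fold above ATRA did not pass (0.54 ± 0.17, adjusted p = 0.0119) and depended on the libraries, with 0.32 without ATRA library 9 (adjusted p = 0.0739) and 0.70 without ATRA library 8 (adjusted p = 0.00216). It passed with edgeR and TMM scaling (0.41, adjusted p = 0.00883). The minor transcript ENST00000405331.3, with 2.43% of the TRIB2 reads, averaged 1.53, 12.4, 13.2 and 29.3 normalized reads in untreated, DAC, ATRA and DAC + ATRA libraries. With 1 to 2 reads per untreated library it passed the filter only through treated libraries, and these values are a description.

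TRIB1, the other COP1 adaptor, had few reads in untreated cells and was higher by more than 10-fold with each treatment. Transcript ENST00000311922.3 (chr8:125430358-125438403, plus strand, 3 exons), which held 97.4% of the TRIB1 reads, had 36.8, 34.6 and 29.6 normalized reads in untreated libraries, 698, 850.5 and 820 with DAC, 423, 407 and 345 with ATRA, and 535, 601 and 571 with DAC + ATRA. The 4 groups did not overlap, and DAC + ATRA lay between ATRA and DAC rather than above both. The fold differences from untreated were 23.5 for DAC, 11.7 for ATRA and 16.9 for the combination (log2 4.51, 3.50 and 4.04, each ± 0.13). On the same scale DAC + ATRA was 0.47 ± 0.13 below DAC and 0.54 ± 0.13 above ATRA. By rank of the log2 difference TRIB1 stood at 47 of 9016 with ATRA, ahead of TRIB2 at 76 and CEBPE at 123. Its rank was 326 with DAC and 502 with DAC + ATRA. These ranks come from the values through which TRIB1 drew attention and are a description only. The other 3 TRIB1 transcripts had 22, 53 and 66 reads in all 12 libraries together and were not tested.

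**Figure D1:**
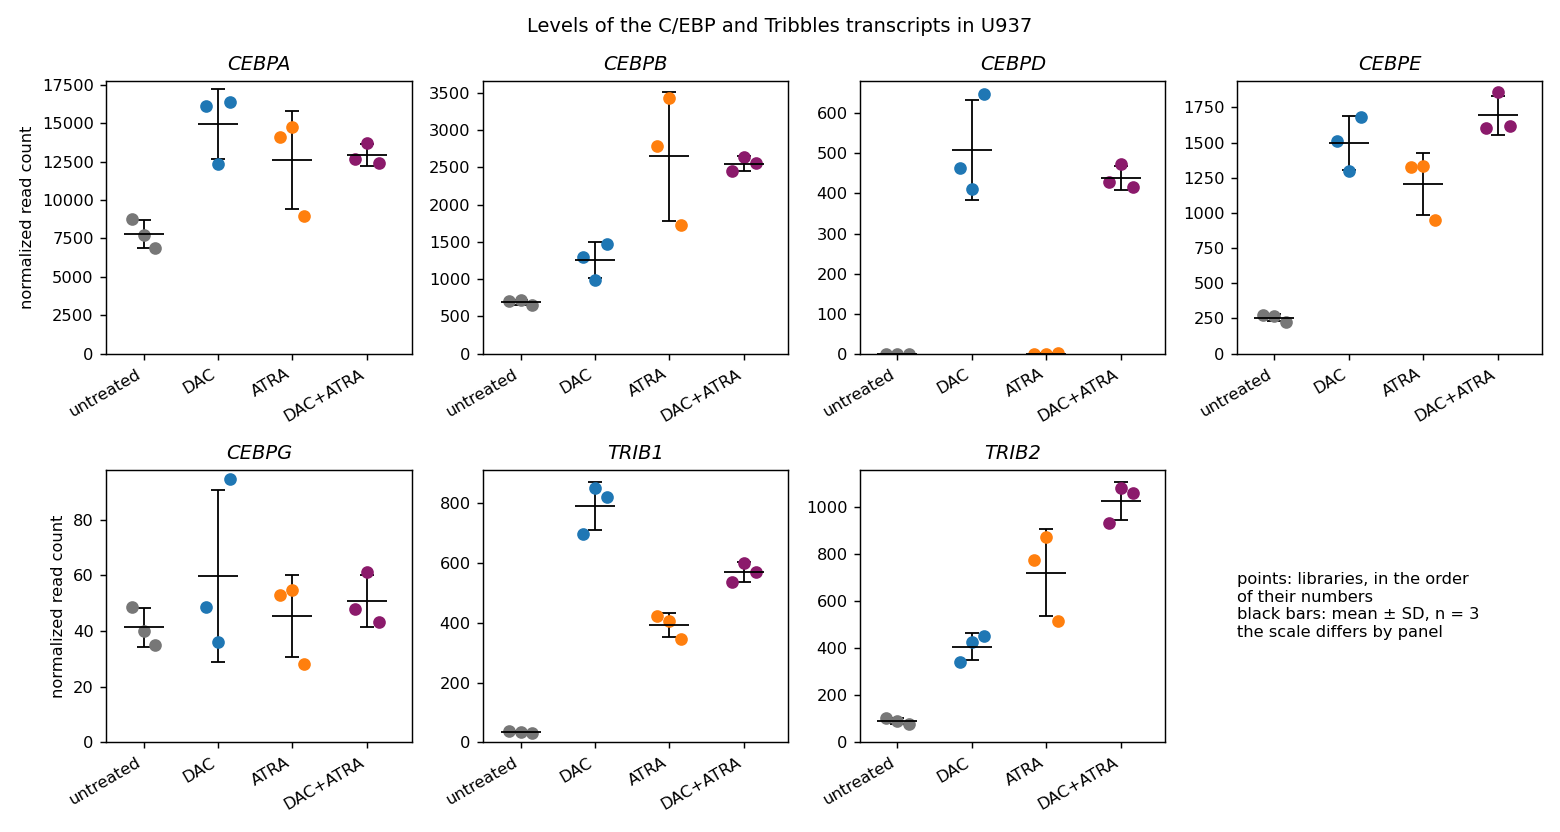
Normalized read count of the main transcript of each of the 7 genes (vertical axis, from 0, with a scale of its own per panel) in the 4 conditions; points are libraries and black bars the mean ± SD (n = 3). CEBPD is seen in the DAC and DAC+ATRA groups with means of 508 and 440, TRIB1 is highest with DAC at 789, and TRIB2 is highest with DAC+ATRA at 1026.

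Per kb of transcript, CEBPA came first in every condition, with 2995 ± 361 in untreated, 5748 ± 875 in DAC, 4843 ± 1226 in ATRA and 4971 ± 264 in DAC + ATRA cells (normalized reads per kb, SD, n = 3). The next levels in untreated cells were CEBPB with 376 ± 18.5 and CEBPE with 215 ± 21.5. With DAC, CEBPE at 1257 ± 162 stood above CEBPB at 681 ± 132, while with DAC + ATRA the levels of CEBPE at 1422 ± 118 and CEBPB at 1387 ± 53.7 lay within each other's spread. CEBPD reached 406 ± 99.5 per kb with DAC and 351 ± 24.1 with DAC + ATRA. For the genes with overlapping transcripts the level depends on the bases taken: over those outside other same-strand transcripts, untreated TRIB2 stood at 125 ± 18.1, TRIB1 at 15.9 ± 1.75 and CEBPG at 221 ± 36.9, the last within the spread of CEBPE. On those bases TRIB2 stood at 559 ± 80.6 in DAC, 990 ± 253 in ATRA and 1409 ± 112 in DAC + ATRA cells, the last within the spread of CEBPE and CEBPB, and TRIB1 at 373 ± 38.0, 185 ± 19.4 and 269 ± 15.6. Over all bases, untreated TRIB2 stood at 20.9 ± 3.03, CEBPG at 11.1 ± 1.85 and TRIB1 at 9.35 ± 1.03, the lower pair overlapping within their SD.

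Counted over the 6 members other than TRIB1, DAC raised 5, ATRA 4 and DAC + ATRA 5, and all 7 genes had positive log2 differences from untreated with each treatment. With ATRA a pair of these signs was not stable: that of CEBPG (0.08) turned negative without ATRA library 7, ATRA library 8 (-0.08, the lowest) or untreated library 3, and that of CEBPD (0.29) rested on 1 read and was 0 without ATRA library 9. The count of positive signs includes TRIB1, picked out by its own values, and CEBPD, which passed the filter through the DAC-treated libraries alone. The median difference of all transcripts tested was itself 0.22 (DAC), 0.00 (ATRA) and 0.20 (DAC + ATRA). The share of positive differences among all transcripts was not taken, so nothing is read from the count of signs. Over all 9016 transcripts tested, DAC was called higher for 30.6% and lower for 8.7%, ATRA for 6.47% and 2.67%, and DAC + ATRA for 32.6% and 14.2%. Since CEBPD could pass the filter only where it was high, its calls add nothing to the counts with DAC, with DAC + ATRA and for DAC + ATRA against ATRA. Comparing DAC + ATRA with DAC, 2 members were called higher (CEBPB and TRIB2), against 6.08% of all transcripts higher and 5.26% lower. Comparing DAC + ATRA with ATRA, 2 were called higher, against 25.9% higher and 8.88% lower: CEBPD, which the filter let through only where it was high, and CEBPE, whose call was lost without ATRA library 9 or DAC+ATRA library 11. These comparisons share libraries, the untreated ones among the first 3 and the DAC + ATRA ones among the last 3, and are not independent of each other.

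**Figure D2:**
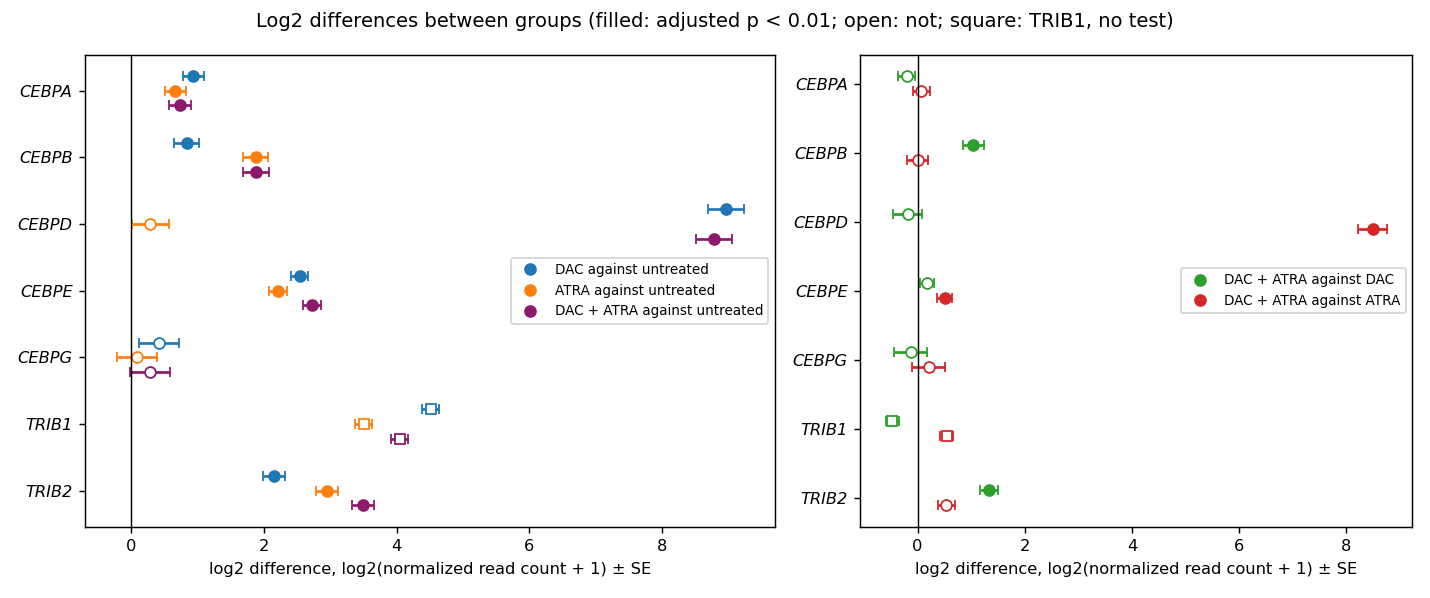
Log2 difference (horizontal axis, ± SE) of each gene against untreated (left) and of DAC + ATRA against each single agent (right); filled points passed an adjusted p of 0.01, open points did not, and squares mark TRIB1, which was not tested. CEBPD has 8.96 and 8.78 with the DAC-containing treatments and 0.29 with ATRA, whereas in the right panel CEBPB and TRIB2 have filled points against DAC and CEBPE, at 0.18, an open one.

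The next question was how the 2 agents combined. The DAC × ATRA interaction, the log2 difference of DAC + ATRA from untreated minus the sum of those of the single agents, was negative for all 7 genes. It was -3.97 ± 0.18 for TRIB1, -2.03 ± 0.19 for CEBPE, -1.61 ± 0.24 for TRIB2, -0.86 ± 0.23 for CEBPA, -0.84 ± 0.27 for CEBPB, -0.47 ± 0.39 for CEBPD and -0.21 ± 0.43 for CEBPG. Over all transcripts tested the median was -0.06, with 0.787% called higher and 1.67% called lower, and because the interaction of TRIB1 led to the choice of these genes nothing is read from that comparison. For CEBPG the sign was not stable, and without a single library it ranged from -0.51 to 0.17. The interaction of CEBPD then ranged from -0.62 to -0.18, the latter without ATRA library 9, which held its only read with ATRA alone.

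The same departure was also taken in units of reads. Had the rises over untreated simply added up, TRIB2 would have reached 1036 normalized reads and was observed at 1026, a difference of -10.8 ± 122 (SE). TRIB1 would have reached 1148 and was observed at 569, a difference of -579 ± 55.6. CEBPE was observed at 1693 against 2446 (-753 ± 188), and CEBPA at 12930.1 against 19757 (-6826 ± 2360). The difference was -660 ± 523 for CEBPB, -68.5 ± 74.0 for CEBPD and -13.0 ± 20.8 for CEBPG. Like the interaction values, these differences are a description without a test.

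**Figure D3:**
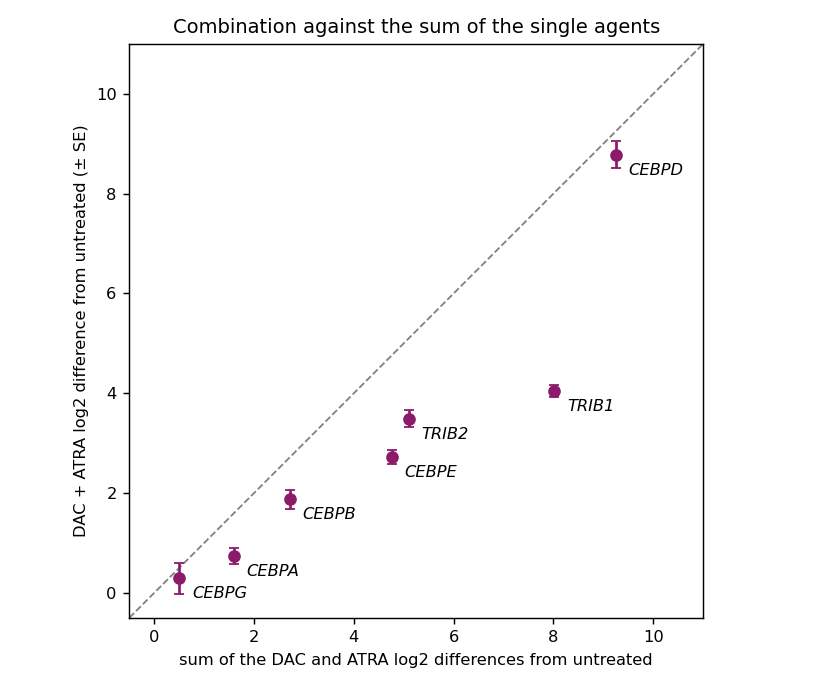
Log2 difference of DAC + ATRA from untreated (vertical axis, ± SE) against the sum of the DAC and ATRA log2 differences (horizontal axis) for the 7 genes, with a dashed line where both are equal. All points lie under the line, TRIB1 farthest, with 4.04 against a sum of 8.02, and CEBPD with 8.78 against 9.25.

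Ratios within a library do not depend on its size factor and showed how the balance between members moved. The reads of CEBPB per read of CEBPA were 0.0895 ± 0.00824 in untreated and 0.0835 ± 0.00526 in DAC libraries, but 0.208 ± 0.0222 in ATRA and 0.197 ± 0.00720 in DAC + ATRA libraries (SD, n = 3). The groups with ATRA did not overlap those without it. CEBPE per CEBPA was 0.0330 ± 0.00150 in untreated, 0.101 ± 0.00594 in DAC, 0.0970 ± 0.00842 in ATRA and 0.131 ± 0.00420 in DAC + ATRA libraries, so that the combination lay above both single agents in every library. TRIB1 per TRIB2 was 0.372 ± 0.0153 in untreated, 1.95 ± 0.123 in DAC, 0.561 ± 0.103 in ATRA and 0.556 ± 0.0182 in DAC + ATRA libraries, and DAC was the condition in which TRIB1 reads outnumbered TRIB2 reads. Per kb, their order in DAC cells depended on the bases taken. Over bases outside other same-strand transcripts TRIB1 stood at 373 and TRIB2 at 559, and over all bases at 220 and 93.6. ATRA library 9, which had the lowest value of its group for CEBPA, CEBPB, CEBPE, CEBPG, TRIB1 and TRIB2, had the highest ratio of its group for CEBPE per CEBPA (0.107) and the lowest for CEBPB per CEBPA (0.193), and for TRIB1 per TRIB2 it had 0.670, against 0.547 and 0.467 in the other ATRA libraries.

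**Figure D4:**
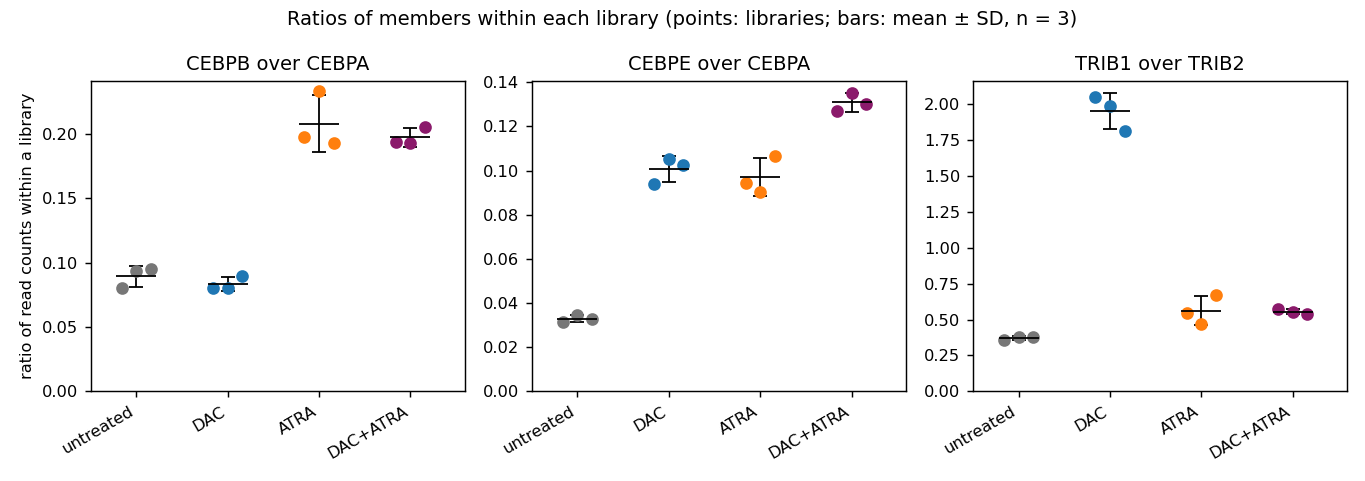
Ratio of normalized read counts within each library (vertical axis, from 0) for CEBPB over CEBPA, CEBPE over CEBPA and TRIB1 over TRIB2 in the 4 conditions; points are libraries and black bars the mean ± SD (n = 3). CEBPB over CEBPA is near 0.2 in the ATRA-containing groups and under 0.1 in the other groups, and TRIB1 over TRIB2 is 1.95 with DAC and under 0.7 elsewhere.

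Across the 12 libraries, TRIB1 and CEBPE were the nearest neighbours of each other among 4896 transcripts with a mean of at least 50 (Pearson r = 0.982 of log2 values). The 12 points come from 4 conditions with 3 libraries each, so that r mostly follows the differences between conditions. After CEBPE, TRIB1 was followed by ANGPT4 (r = 0.978) and FAM212B (0.969), and CEBPE, after TRIB1, by ANGPT4 (0.980) and FAM117A (0.979). The transcripts most like TRIB2 were RAB20 (0.990), ASB1 (0.989) and RNF122 (0.987), and TRIB2 also ran close to CEBPB (0.942). Those most like CEBPB were TMSB10 (0.981), ANKRD22 (0.979) and SMIM3 (0.976). CEBPD, read almost only with DAC, was closest to TUBA3D, PRAC1 and OTUD6A (0.999, 0.999 and 0.998), and CEBPA to C11orf84 and KLHL22 (0.966 and 0.964). For CEBPG, with few reads, the highest values were 0.904, 0.902 and 0.895 for ZCCHC8, C19orf24 and LONRF1.

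Leucine zipper partners and relatives of the C/EBP factors are counted first. Of 11 such genes 8 were tested: DAC raised 6, ATRA lowered 2, and DAC + ATRA raised 6 and lowered 1, with list medians of 1.18, -0.08 and 1.01 on the log2 scale. Over all transcripts tested these medians were 0.22, 0.00 and 0.20, and the shares called were 30.6% higher and 8.7% lower with DAC, 6.47% and 2.67% with ATRA, and 32.6% and 14.2% with DAC + ATRA, which serve as the background for the lists that follow as well. ATF5 had the highest value with DAC + ATRA and rose from 210 ± 21.1 normalized reads in untreated to 980 ± 78.5 with DAC and 641 ± 24.2 with DAC + ATRA (log2 2.22 ± 0.17 and 1.61 ± 0.17, limma adjusted p = 3.03e-09 and 2e-07). With ATRA it stood at 221 ± 70.3 (0.03 ± 0.17, adjusted p = 0.967). FOSL2, an AP-1 subunit, had the lowest value and fell with ATRA (-1.58 ± 0.15, limma adjusted p = 1.26e-07) and with DAC + ATRA (-0.57 ± 0.15, adjusted p = 0.00304). JUN, named after its values were seen, fell with ATRA (-0.78 ± 0.13, limma adjusted p = 0.000249) and rose with DAC (1.72 ± 0.13, adjusted p = 9.67e-10). DDIT3, which encodes the C/EBP relative CHOP, was listed at 0 in every library, as were the protein-coding transcripts of CALR and MAP2K2, genes of the lists that follow which most cells use, so its 0 does not show absence.

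The machinery through which Tribbles proteins act was counted next. Of 11 genes for the COP1 ubiquitin ligase, MEK kinases and Tribbles relatives 7 were tested, and DAC raised 2, ATRA raised 1 and lowered 1, and DAC + ATRA raised 2, with list medians of 0.22, -0.04 and 0.35, beside 0.22, 0.00 and 0.20 over all transcripts. The counts with DAC and DAC + ATRA were close to the 30.6% and 32.6% called higher over all transcripts. STK40, a pseudokinase related to the Tribbles family, went from 29.7 ± 4.55 to 61.6 ± 5.69 normalized reads with DAC and to 65.0 ± 12.4 with DAC + ATRA (log2 1.04 ± 0.21 and 1.10 ± 0.21, limma adjusted p = 0.00034 and 0.000147). CUL4A, the cullin scaffold, had the lowest value (-0.30 ± 0.22, limma adjusted p = 0.253). TRIB3, the third family member, had a difference of the other sign than TRIB1 and TRIB2 with ATRA: it stood at 1784 ± 99.7 normalized reads in untreated, 2077 ± 130 in DAC, 1297 ± 202 in ATRA and 1491 ± 95.2 in DAC + ATRA libraries. It fell with ATRA (-0.47 ± 0.11, limma adjusted p = 0.00506) and did not pass with DAC (0.22 ± 0.11, adjusted p = 0.104) or DAC + ATRA (-0.26 ± 0.11, adjusted p = 0.0509). DDA1, a subunit of the DDB1 and CUL4 ligase complex, was the gene of this list that rose with ATRA (0.44 ± 0.10, limma adjusted p = 0.00465) and is named after its values were seen.

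Among regulators and cofactors of C/EBP factors, 10 of 14 were tested, and 3 rose and 2 fell with DAC and likewise with DAC + ATRA, while 1 rose and 1 fell with ATRA, against 30.6%, 32.6% and 6.47% called higher over all transcripts. The counts include ID1, 1 of the 3 called higher with DAC and with DAC + ATRA and the 1 called higher with ATRA, which passed the filter only through treated libraries. The list medians were 0.33, 0.18 and 0.17 with DAC, ATRA and DAC + ATRA. ID1, an inhibitor of helix-loop-helix factors, averaged 1.22 normalized reads in untreated, 13.0 in DAC, 18.4 in ATRA and 83.1 in DAC + ATRA libraries. GFI1, a repressor that acts with C/EBPε in neutrophil development, went the other way, from 256 ± 11.5 in untreated to 98.0 ± 17.4, 145 ± 13.6 and 63.2 ± 15.1 (limma, adjusted p = 9.53e-07, 0.00196 and 2.9e-09).

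Known C/EBP targets of granulocytes and monocytes rose and fell with each treatment. Of 26 such genes 13 were tested: 7 rose and 2 fell with DAC, 2 rose and 2 fell with ATRA, and 7 rose and 3 fell with DAC + ATRA, with list medians of 2.08, 0.03 and 1.60. The shares over all transcripts were 30.6% higher and 8.7% lower with DAC, 6.47% and 2.67% with ATRA, and 32.6% and 14.2% with DAC + ATRA, and the counts include BPI and KLF5, which passed the filter only through treated libraries, and FCN1, 1 of the 3 that fell with DAC + ATRA, which passed it only through untreated and ATRA libraries. BPI, a neutrophil granule protein, was near 0 in untreated libraries, at 11.7 ± 5.20 normalized reads in DAC, 2.06 ± 2.82 in ATRA and 94.8 ± 9.96 in DAC + ATRA libraries. GFI1, described above, belongs to this list too and had its lowest value. The pair that rose with ATRA, named after their values were seen, was S100A9 (log2 3.57 ± 0.13, limma adjusted p = 2.06e-14) and ITGAM (2.30 ± 0.10, adjusted p = 3.5e-13). MPO, the azurophil granule enzyme, also named after its values were seen, fell with each treatment, from 52120 ± 3077 to 26664 ± 6204, 33033 ± 5970 and 14973 ± 676 (limma, adjusted p = 1.65e-05, 0.00328 and 6.73e-09).

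Of 14 inflammatory targets of C/EBPβ and C/EBPδ 6 were tested, of which 4 rose with DAC, 1 rose and 1 fell with ATRA, and 5 rose with DAC + ATRA (list medians 1.82, 0.30 and 1.69). Over all transcripts 30.6%, 6.47% and 32.6% were called higher, and the counts include PTGS2, which passed the filter only through treated libraries. IL1B, which encodes interleukin-1β, rose from 62.4 ± 8.09 normalized reads in untreated to 317 ± 10.9 under DAC, 249 ± 54.9 under ATRA and 593 ± 34.4 under the combination (limma, adjusted p = 4.9e-11, 3.55e-09 and 2.04e-13). SOD2 had the lowest value with DAC + ATRA (0.04 ± 0.18, limma adjusted p = 0.851). PTX3, named after its values were seen, stood at 63.6 ± 2.48 in untreated, 700.0 ± 194 in DAC, 14.2 ± 2.98 in ATRA and 119 ± 25.3 in DAC + ATRA libraries, so that it rose with DAC and fell with ATRA (limma, adjusted p = 2.41e-11 and 2.13e-07).

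**Figure D5:**
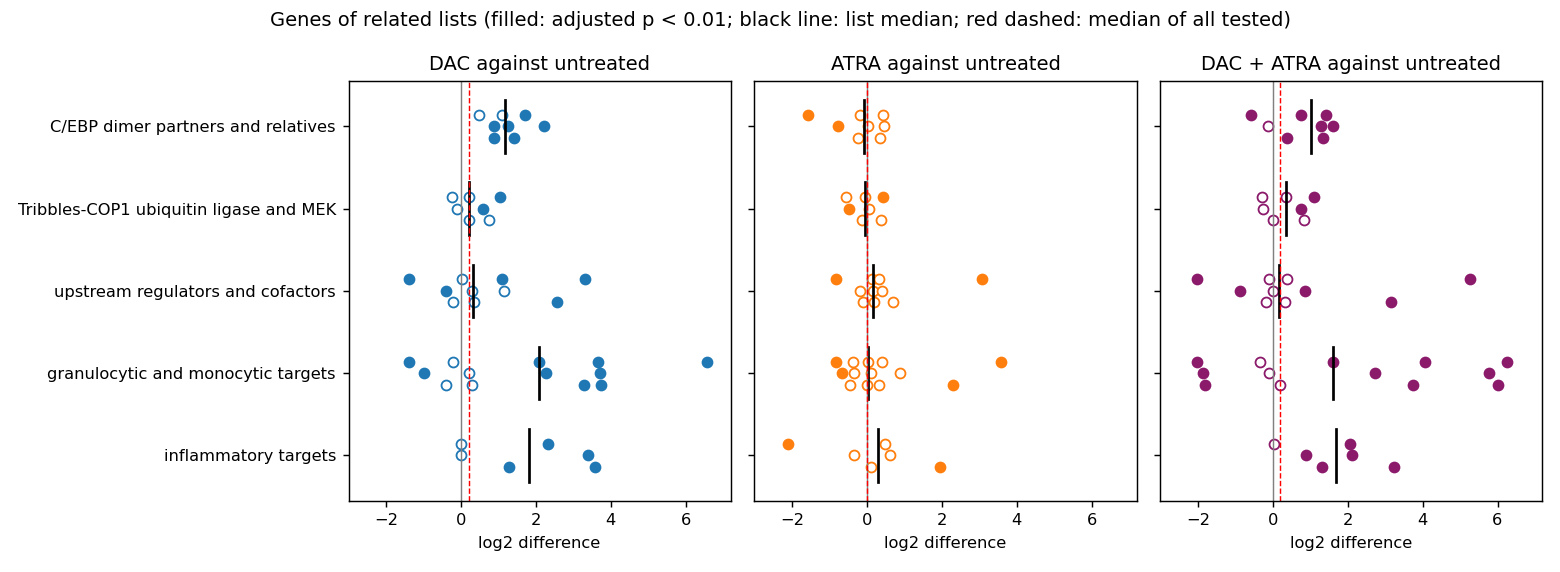
Log2 difference from untreated (horizontal axis) of each tested gene of 5 related lists with DAC, ATRA and DAC + ATRA; filled points passed an adjusted p of 0.01, black lines are list medians and the red dashed line is the median of all transcripts tested. With DAC the dimer partners have a median of 1.18 and the granulocytic and monocytic targets of 2.08, whereas with ATRA these medians are -0.08 and 0.03. The points of BPI, FCN1, ID1, KLF5 and PTGS2, which passed the filter only through some of the groups, are a description.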

How the data were processed

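U937 RNA was depleted of ribosomal RNA, and strand-specific paired-end libraries were sequenced. Per the labels, the authors' notes name FastQC, STAR, HTSeq, DESeq2 and the build hg38; versions are not given in the sources used here. The deposited table holds a signal per transcript and library, namely read counts that the authors divided by DESeq2 size factors. Multiplying back gave whole reads for 100% of values (tolerance 0.01), with a median of 9874622 reads per library. Transcripts were typed with GENCODE 44, and 9016 protein-coding ones with at least 10 normalized reads in at least 3 of the 12 libraries were tested with limma 3.58.1 (R 4.3.3, trend and robust) on log2(value + 1) in a single fit, with Benjamini-Hochberg adjustment and a threshold of 0.01. Alternatives used edgeR 4.0.16 or DESeq2 1.42.0 on the recovered reads, other scalings, filters and pseudocounts, and left out each library. Scripts were tested on simulated data. A fold against untreated libraries without reads used 3 reads per library. Intervals (95%) cover counting error only. The members and gene lists were chosen with earlier results of these data known. The main transcript of a member is its protein-coding one with the highest mean over all libraries. Of each list, the genes with the highest and lowest change in DAC + ATRA were named, plus TRIB3 and DDIT3, and others where said. Likeness is Pearson r of log2 values over 12 libraries, with the 3 highest named, apart from an item that is not reported here. Other samples of the study were not analysed here.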

Additional observations from a re-analysis of the deposited data

Results flagged for a closer look

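For 2 of the 13 tested granulocytic and monocytic targets and 1 of the 6 tested inflammatory targets, the effect of DAC differed between cells without and with ATRA by the interaction term of the limma fit, which over all 9016 transcripts was called lower for 1.67% and higher for 0.787%. The interaction of S100A9, a calcium-binding protein of granulocytes and monocytes, was -1.30 ± 0.18 on the log2 scale (adjusted p = 0.000109), that of IL1B was -1.06 ± 0.21 (adjusted p = 0.00392), and that of ITGAM, the integrin chain CD11b, was -0.63 ± 0.14 (adjusted p = 0.00819). In units of reads all 3 exceeded the added rises of the single agents, S100A9 with 5235 against 1983 normalized reads (difference 3252 ± 266, SE), IL1B with 593 against 504 (89.3 ± 38.2) and ITGAM with 2725 against 1656 (1069 ± 77.6). The sign of the departure therefore depended on the scale for these 3 genes.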

How the results depend on the processing

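Over 25 other settings, no member changed direction in a called comparison. With no filter on low values, 1 member was called in DAC + ATRA against DAC (TRIB2), where CEBPB had an adjusted p of 0.0241, and with at least 10 reads in every library 1 member was called in DAC + ATRA against ATRA, since CEBPD could not be tested there. Without 1 library at a time, the counts of members called were 5 to 5 (DAC), 3 to 4 (ATRA), 5 to 5 (DAC + ATRA), 2 to 2 (DAC + ATRA against DAC) and 1 to 3 (DAC + ATRA against ATRA): 1 without ATRA library 9 or DAC+ATRA library 11, 3 without ATRA library 8. Negative interactions then numbered 6 to 7, and that of TRIB1 was -4.06 to -3.88. With edgeR, added after seeing the data, CEBPB with DAC had an adjusted p of 0.0404 without DAC library 6, and without a filter 0.0263 (limma). CEBPA with ATRA missed the threshold with no filter (0.146), with noncoding transcripts included (0.0149), with only the groups compared (0.0278) and with a pseudocount of 0.1 (0.0126); CEBPA with DAC + ATRA missed it with no filter (0.0259). TRIB2 in DAC + ATRA against ATRA passed in 6 settings besides 1 left-out library. No paired analysis was possible because the deposited columns carry a running library number and no replicate number. Few reads limit CEBPG and the minor transcripts.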
